A study of Mus musculus with 6 samples.

Results

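The genes described here are 41 interferon-stimulated genes of the mouse, named one by one from general knowledge of the interferon response and looked up by symbol in a deposited RNAseq table of mouse liver. Of these, 40 were among the 16123 genes of the table, and *Rnf213* was not analysed here. The libraries came from 3 pools of liver RNA of wild-type (WT) mice and 3 pools of *Txndc5* Knockout (KO) mice, all male, about 2 months old when they were put on a purified chow for 4 weeks, and sacrificed after 16 h without food. The WT mice carry the strain label C57BL/6Rj and no engineered allele, and the KO mice carry the label C57BL/6JRj-Txndc5<em2Mdnp>/Ciba. The KO allele is a CRISPR deletion of exon 3 made in the germline, so that every cell type of the liver lacks it, and it was studied in 1 line. The methods give 3 mice per pool beside 13 WT and 10 KO mice, and since a pool averages over its mice, the spread between pools is not that between single mice. The study asked how the liver transcriptome differs without TXNDC5, a protein disulfide isomerase of the endoplasmic reticulum.

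Interferons are secreted when a cell senses foreign or misplaced nucleic acid. Type I interferons bind a receptor whose kinases act on STAT2, which joins IRF9 in a complex that binds the interferon-stimulated response element (ISRE) in the promoters of target genes. Interferon gamma, made by lymphocytes and NK cells, acts on its targets through the gamma-activated site (GAS). The targets include the sensors and transcription factors of the pathway itself, antiviral effectors such as the IFIT, OAS and MX proteins, and 2 families of GTPases, the guanylate-binding proteins and the immunity-related GTPases, which attack the vacuoles of intracellular parasites. In liver, hepatocytes, Kupffer cells and sinusoidal endothelial cells all respond, and many of the targets are transcribed at a low level without infection.

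Because interferon acts on its targets through these short promoter motifs, windows of 8 promoters are given first, from families whose members had unlike genotype values below. They were taken from a RefSeq table of the build GRCm38.p6 that spans 250 bases before to 50 bases after a gene's start, and all printed bases lie before the start. Each is written 5′ to 3′ in the direction of transcription, and capitals mark the letters of the motifs, the ISRE core and the GAS. The ISRE core was searched as GAAA, then 2 bases of any kind, then GAAA again, or on the other strand as TTTC, 2 bases of any kind and TTTC. The GAS was searched as TTC, then 3 bases of any kind, then GAA, which reads the same on both strands.
Gbp7, chr3:142530268-142530307, plus strand: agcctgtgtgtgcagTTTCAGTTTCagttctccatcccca
Gbp3, chr3:142559984-142560029, plus strand: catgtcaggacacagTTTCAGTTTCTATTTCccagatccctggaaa
Gbp2, chr3:142620589-142620628, plus strand: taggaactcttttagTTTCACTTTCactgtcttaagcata
Ifit1, chr19:34640770-34640828, plus strand: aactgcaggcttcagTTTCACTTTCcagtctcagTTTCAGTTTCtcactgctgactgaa
Ifit3, chr19:34583358-34583431, plus strand: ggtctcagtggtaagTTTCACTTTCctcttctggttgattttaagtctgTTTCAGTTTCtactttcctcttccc
Isg15, chr4:156200860-156200911, minus strand: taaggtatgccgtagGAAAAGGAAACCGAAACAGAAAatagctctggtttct
Igtp, chr11:58199496-58199546, plus strand: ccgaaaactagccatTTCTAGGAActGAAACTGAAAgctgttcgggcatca
Irgm2, chr11:58214887-58214937, plus strand: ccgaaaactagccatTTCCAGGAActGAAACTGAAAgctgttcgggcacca

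The ISRE core was found in the windows of 17 of the 31 members that the promoter table lists (54.8%), against 1079 of 27025 genes in the whole table (3.99%). Counted by window, since a gene can have several starts, it was in 18 of 36 windows of members and in 3.44% of all 32851 windows. The GAS was in 8 of the 31 members (25.8%), against 9.55% of all genes in the table and 8.3% of all windows. In 15 of the 17 members an ISRE lay before the start, between 14 and 222 bases away, and 14 of these were within 160 bases. *Ifih1* and *Ddx58*, which encode the RNA sensors MDA5 and RIG-I, held it only after the start. *Ifit1* and *Ifit3*, neighbours on chromosome 19, each held 2 separate copies, while the copies of *Gbp3*, *Isg15*, *Oas1a*, *Bst2* and *Irgm1* overlap each other. Both motifs were present in 5 members, *Gbp7*, *Oas1a*, *Bst2*, *Igtp* and *Irgm2*, and in *Bst2* they overlap. The GAS copies of *Gbp7* lie 87 and 106 bases before its start, outside the stretch printed above. In *Igtp* and *Irgm2*, neighbours on chromosome 11, the printed windows had equal bases at 49 of 51 positions, and in both the ISRE began 11 bases after the GAS. A match says only that these letters are there, and the members were chosen for their response to interferon, so a high share is a description of the list.

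**Figure D1:**
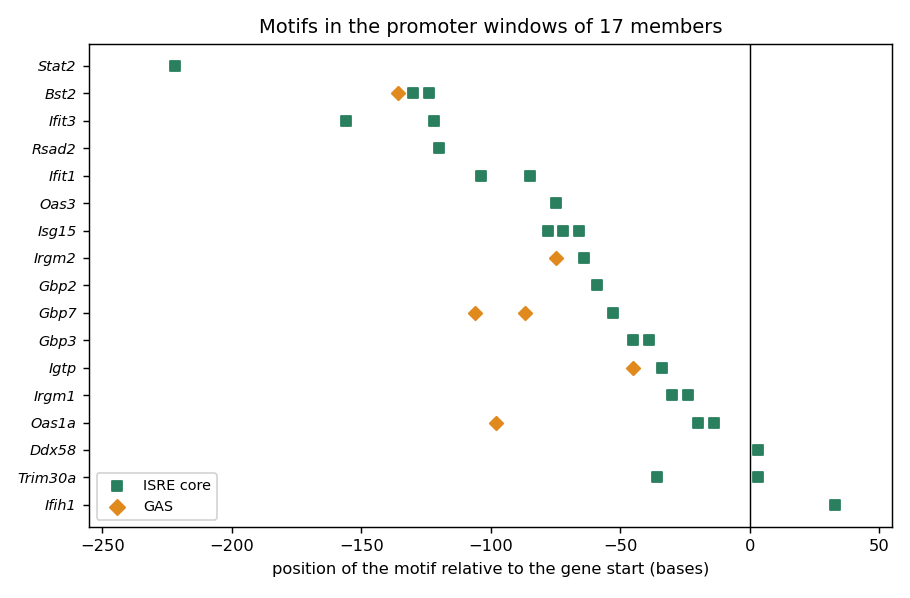
Positions of the ISRE core (squares) and the GAS (diamonds) in the promoter windows of the 17 members with an ISRE core; the x axis is the distance of the motif's first base from the gene start in bases, negative before the start, with 1 row per gene. Most ISRE copies sit within 160 bases before the start, *Stat2* lies farthest away at 222 bases, and *Ifih1* and *Ddx58* hold theirs only after the start.

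The deposited table gave 1 expression value per genotype for each gene, counted in reads after division by size factors of DESeq2, with the 3 libraries of a genotype combined. The ratio of both values is shrunken toward 1, most in weakly expressed genes, and carries no spread between pools. For weakly expressed genes the reads of each library were recovered from the midpoint of both values, which is the mean over the 6 libraries. This gave reads per library for 16 members and none for the other 24, and the highest sum of normalized reads over the 6 libraries among the 16 was 482. Reads per library are named KO-a to KO-c and WT-a to WT-c by falling size factor, since they could not be matched to pool numbers, and the genotype of each came from the table's own genotype columns. The size factors ranged over 1.60-fold, while clean reads ranged only from 44.0 to 46.1 M per library. The values marked "normalized reads" below are recovered reads divided by these size factors, and those marked "value" are the authors' value of a genotype. For *Txndc5* itself the value was 2697 in WT and 90.8 in KO, and for the liver marker *Alb* 1329550 and 1332580. Bulk RNA was measured, so fewer cells of a type and less RNA per cell cannot be told apart. Nothing states which mice entered which pool, and *p* values measure only the spread between these pools.

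Libraries WT-a, KO-c and KO-a stood apart in these genes, the first and last high and KO-c low. In WT-a, the median member lay 1.09 above its own mean over the 6 libraries on the scale of log2(normalized reads + 1), against 0.34 for the median of 3793 genes with at least 60 normalized reads in all. In KO-a the same medians were 0.50 and 0.23, and in KO-c they were -0.81 and -0.17. The medians of KO-b, WT-b and WT-c over the 14 members were -0.36, -0.26 and -0.09. For 8 of the 14 members, the highest library of each genotype was the one named a, against 42.1% of the 3793 genes. These 8 members were therefore highest in the library with the largest size factor of each genotype. KO-a and WT-a share their letter only by this rank. The span of each limma difference with 1 library left out is given below or in the closing section.

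**Figure D2:**
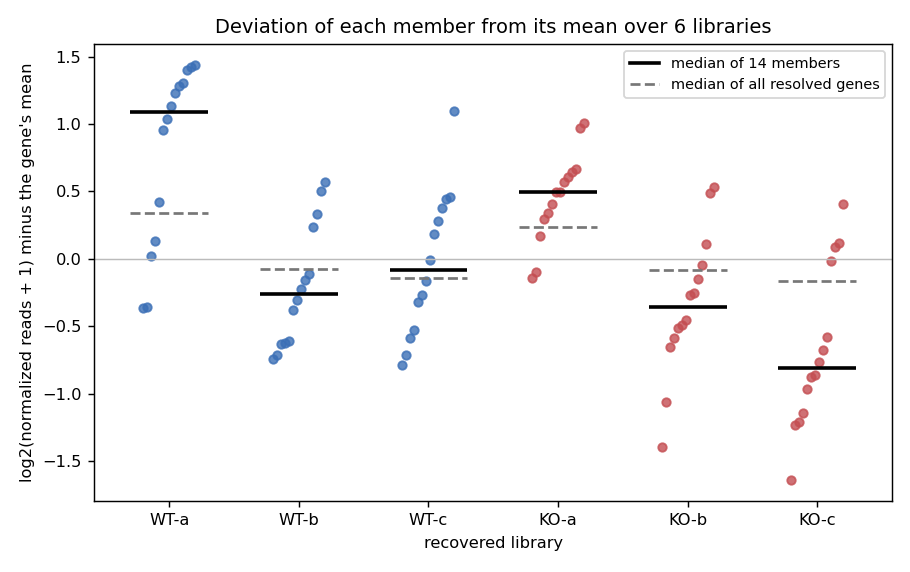
Deviation of 14 interferon-stimulated genes in each recovered library, as log2(normalized reads + 1) minus the gene's mean over the 6 libraries (y axis), by library (x axis); points are genes, solid bars their median and dashed bars the median of all 3793 resolved genes. The points of WT-a and KO-a lie mostly above 0 (medians 1.09 and 0.50), and those of KO-c mostly below (median -0.81).

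With 3 pools per genotype, no difference was detected after adjustment in any member fitted by limma. None of the 11 members with a sum of 60 to 400 normalized reads passed an adjusted *p* of 0.05 in limma (lowest unadjusted *p* = 0.0670, adjusted *p* = 0.999 in all 11), where 1 of 3307 genes did (0.0302%). None passed an unadjusted *p* of 0.05 either, against 1.91% of the 3307 genes. With the 3 members of a higher sum, fitted among 3793 genes, the counts were 0 of 14 and 0 of 14, against 0.0264% and 1.77% of genes. edgeR's quasi-likelihood test called 0 members after adjustment, and also 0 of all 3307 genes. At an unadjusted *p* of 0.05 it called 0 members, against 1.97% of the 3307 genes. The median difference of the 11 members was -0.11 on the log2 scale, from -1.22 to 0.22, beside -0.07 over all genes tested. With TMM factors the median was -0.02, beside 0.02 over all genes tested, and with edgeR -0.30, beside -0.12. Of the 11, 9 had a difference below 0 and 2 above, where 1872 of all 3307 genes were below 0. The limma differences are on the scale of log2(normalized reads + 1), KO minus WT. The exact permutation tests below are two-sided tests of the difference in mean normalized reads, where 3 pools against 3 cannot go below 0.1. The 3 KO libraries lay wholly below or above the 3 WT libraries in 0 of 16 members, against 6.19% of 6109 genes with at least 10 recovered reads (2.85% below and 3.34% above). Single libraries decided part of this. Without KO-a, the 2 KO libraries left lay below all WT libraries in *Gbp6*, *Gbp7*, *Ifit1* and *Ifit2*, so 4 of 16 members did not overlap where 19.7% of genes did not, the median difference was -0.60 beside -0.15 over all genes tested, and 2 members, *Gbp7* and *Ifit2*, passed an unadjusted *p* of 0.05 (4.6% of genes). Without WT-b, *Herc6* and *Ifit2* did not overlap, with KO lower (14.3% of genes did not overlap). Without WT-c, *Gbp3* and *Gbp7* (KO lower) and *Xaf1* (KO higher) did not overlap (17.2% of genes). In either case 1 member passed an unadjusted *p* of 0.05 in limma, *Ifit2* and *Gbp7* in turn (2.15% and 3.9% of genes). The median difference was -0.51 in both, beside -0.12 and -0.16 over all genes tested. Without WT-a the median difference was -0.01, beside 0.07 over all genes tested. No member passed an adjusted *p* of 0.05 in any of these fits. In simulated reads with a known difference of 1 on the log2 scale, limma called 34 of 100 genes after adjustment, and 94 of 100 with a difference of 2. The simulation gave every gene the same spread between libraries and no shift shared by the genes of a library, such as that of WT-a. These shares are therefore not the detection rates for the members. A difference of 1 in a single gene was often not detected even in that setting.

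The authors' values covered all 40 members and, with no spread, allowed no test. Of the 38 members with a mean value of at least 10, 26 had the lower value in KO, where 57.7% of 11367 genes did. Their median log2 ratio, taken as log2((KO value + 1)/(WT value + 1)), was -0.15, beside -0.05 for all 11367 genes, and 30 of the 38 were within 0.3 of 0. A ratio under -0.5 was found in 7 members (7.61% of all genes), namely *Iigp1*, *Gbp7*, *Herc6*, *Gbp3*, *Ifit2*, *Ifit1* and *Ifih1*, and a ratio over 0.5 in 0 members (2.38% of all genes). These 7 belong to 5 families, and each of these families also holds a member within 0.3 of 0.

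**Figure D3:**
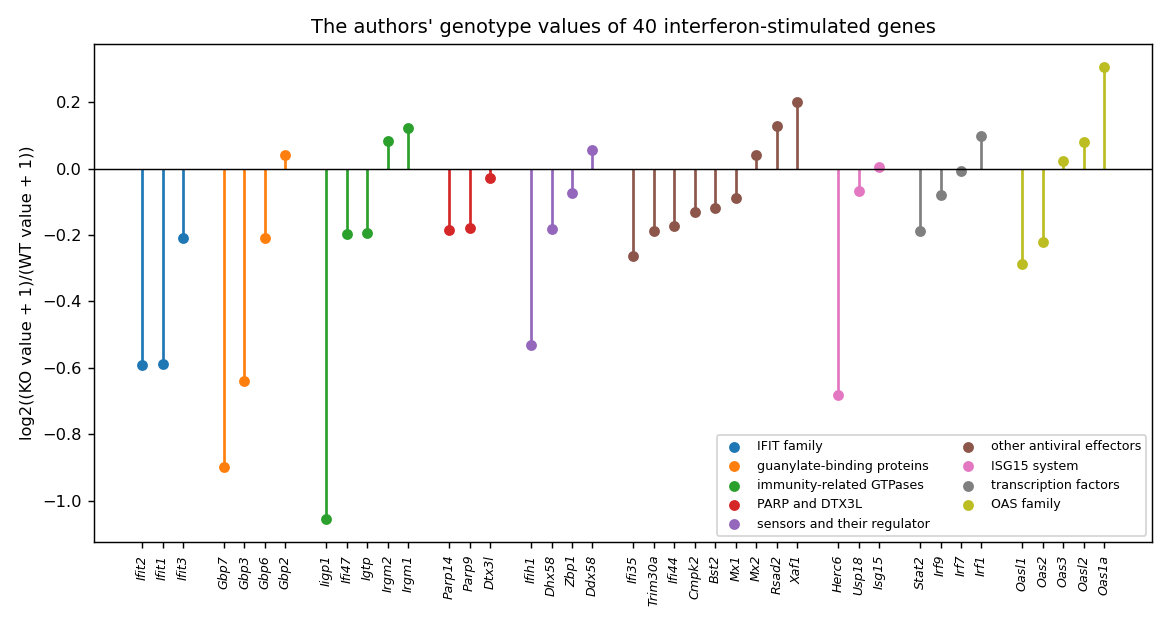
Log2 ratio of the authors' KO value over their WT value, each plus 1 (y axis), for the 40 listed genes grouped and coloured by role (x axis); there is 1 value per genotype, so no error can be drawn. *Iigp1* is lowest at -1.06 and *Oas1a* highest at 0.31, and most genes lie between -0.3 and 0.3.

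Of 21 interferon genes looked for, 1 was listed, with a single read in a KO library, and the other 20 were not analysed here. All 9 receptor chains and their kinases were listed. Of the 8 with a mean value of at least 10, 4 had the lower value in KO, where 57.7% of all genes did. Their median log2 ratio was 0.00, beside -0.05 for all genes. The interferon gamma receptor chains *Ifngr1* and *Ifngr2* had values of 134 and 304 in WT and 115 and 341 in KO. *Jak2*, the kinase that serves the interferon gamma receptor, had a limma difference of -0.42 with an SE of 0.51 (limma *p* = 0.434, exact permutation *p* = 0.5). Among 14 factors that carry or damp the signal, 12 had a mean value of at least 10. Of these 12, 2 had a ratio under -0.5, where 7.61% of all genes did. These 2 were *Ptpn2*, a phosphatase that damps signals from JAK kinases, with a limma difference of -0.79, an SE of 0.50 and *p* = 0.151 (exact permutation *p* = 0.3), and *Nmi*, an interferon-induced adaptor, with values of 124 in WT and 85.4 in KO.

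Of the transcription factors, *Irf7* and *Irf9* were among the most abundant members per length. The value per kb of gene length, averaged over both genotypes, was 739 for *Irf7*, 312 for *Irf9*, 133 for *Irf1* and 76.9 for *Stat2*. *Irf7*, which amplifies the type I response, had a WT value of 1355 and a KO value of 1348. *Irf9*, the DNA-binding part of the type I complex, had 784 in WT and 743 in KO. These are nearly equal levels in both genotypes. *Irf1*, a factor that interferon gamma induces, had 274 and 294, and *Stat2*, which joins IRF9, had 360 and 317. The log2 ratios of the 4 factors ran from -0.19 to 0.10, and no reads per library were recovered for them. *Irf1* held a GAS 90 bases before its start and *Stat2* an ISRE core 222 bases before.

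Among the sensors of nucleic acid, *Ifih1* stood apart in value. *Ifih1* encodes MDA5, which binds long double-stranded RNA, and had a WT value of 157 and a KO value of 108 (log2 ratio -0.53). *Ddx58* encodes RIG-I, which binds RNA with a 5′ triphosphate, and had 258 in WT and 268 in KO. *Dhx58* encodes LGP2, a regulator of both, and had 356 in WT and 314 in KO. The value of *Ifih1* was lower in KO while that of RIG-I was not, but with no reads per library this contrast was not tested. *Zbp1*, a sensor of left-handed nucleic acid that triggers necroptosis, had 173 and 165. In a list of 25 further sensors and adaptors, 18 had a mean value of at least 10. Of these 18, 2 had a ratio under -0.5, where 7.61% of all genes did. Only 3 of the 25 could be fitted by limma. At an unadjusted *p* of 0.05, 0 of these 3 passed in limma, where 1.91% of 3307 genes did. The 2 genes with a ratio under -0.5 were *Tlr3*, the endosomal receptor for double-stranded RNA, and *Rnaseh2c*, a subunit of an RNase that removes RNA from DNA hybrids. For *Rnaseh2c*, the WT value was 703 against a KO value of 496, and without recovered reads it was not among the 3 fitted genes. *Tlr3* had 19.0, 20.3 and 0 normalized reads in KO-a to KO-c and 35.9, 19.3 and 34.2 in WT-a to WT-c. A single library, KO-c, was at 0, and the groups overlapped (limma *p* = 0.0925, adjusted *p* = 0.999, exact permutation *p* = 0.2).

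The IFIT genes, which encode proteins that bind foreign RNA ends and block translation, had lower values in KO in all 3 members, and neither member with recovered reads differed beyond the spread between pools. *Ifit1* held 99.8, 51.2 and 29.4 normalized reads in KO-a, KO-b and KO-c, and 156, 60.3 and 85.6 in WT-a, WT-b and WT-c. KO-a lay above 2 of the WT libraries, so that the groups overlapped, while KO-b and KO-c lay below all 3. The means were 60.1 ± 36.1 in KO and 100.6 ± 49.6 in WT (SD, n = 3 pools each). *Ifit1* had a sum above 400 and was fitted with all 3793 resolved genes, where its limma difference was -0.79 with an SE of 0.56 and *p* = 0.188 (adjusted *p* = 0.999, exact permutation *p* = 0.4). Without KO-a the difference was -1.24, without WT-a -0.43 and without KO-c -0.38.

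*Ifit2*, on chromosome 19 beside *Ifit3* and *Ifit1*, was the weakest of them, with 72 reads in all. Its normalized reads were 14.5, 3.86 and 3.39 in KO-a to KO-c and 18.8, 6.82 and 20.8 in WT-a to WT-c. As in *Ifit1*, KO-a was within the range of WT and the other KO libraries were below it. The means were 7.24 ± 6.27 in KO and 15.5 ± 7.55 in WT (SD, n = 3 pools each; two-sided exact permutation test, *p* = 0.2), while the limma difference was -1.12 with an SE of 0.62 (*p* = 0.105). Without KO-a the limma difference of *Ifit2* was -1.70, and without KO-c it was -0.79. *Ifit3* had too many reads to recover and had a WT value of 156 and a KO value of 134. Its near copy *Ifit3b*, named from a list of further interferon-stimulated genes, had 19.0, 10.6 and 14.7 normalized reads in KO and 28.6, 28.4 and 22.01 in WT. Every KO library of *Ifit3b* was below every WT library (limma difference -0.82, SE 0.40, *p* = 0.0731, adjusted *p* = 0.999, exact permutation *p* = 0.1). The same held for 2.85% of all genes with at least 10 recovered reads. Reads shared by such copies may have been split between them in counting, so the values of *Ifit3* and *Ifit3b* are uncertain.

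**Figure D4:**
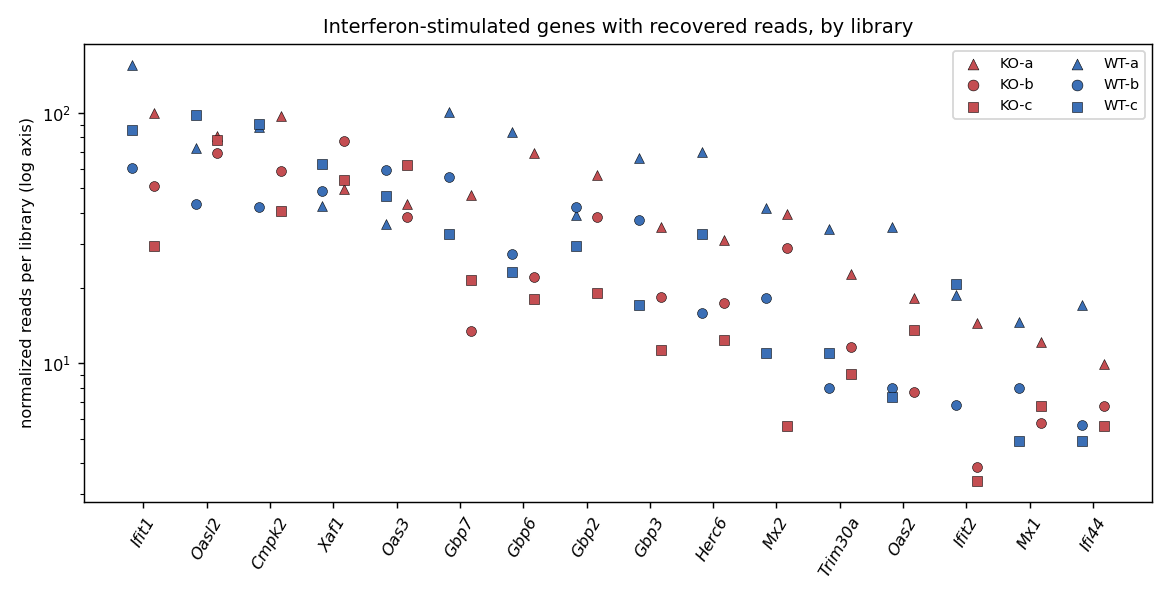
Normalized reads per recovered library (y axis, log scale) of the 16 interferon-stimulated genes with recovered reads (x axis); WT libraries are blue and KO libraries red, and triangles, circles and squares are the libraries a, b and c of each genotype. The triangles are the highest of both colours in most genes, for example 156 and 99.8 in *Ifit1*, and in every gene the colours overlap.

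All 4 guanylate-binding proteins had recovered reads, and their log2 ratios of values ran from -0.90 in *Gbp7* to 0.04 in *Gbp2*. *Gbp7*, *Gbp3* and *Gbp2* lie in 1 cluster on chromosome 3, between 142530336 and 142638008, and *Gbp6* lies on chromosome 5. *Gbp7* held 47.2, 13.5 and 21.5 normalized reads in KO-a to KO-c and 101.2, 55.7 and 33.0 in WT-a to WT-c. Only KO-a reached into the range of WT, above WT-c. The means were 27.4 ± 17.6 in KO and 63.3 ± 34.7 in WT (SD, n = 3 pools each). The limma difference of *Gbp7* was -1.22 with an SE of 0.58 and a 95% interval from -2.54 to 0.11 (*p* = 0.0670, adjusted *p* = 0.999, two-sided exact permutation *p* = 0.2), the lowest limma *p* of the members. Without KO-a the difference of *Gbp7* was -1.69, and without WT-a it was -0.81. Beside it, *Gbp3* held 35.1, 18.3 and 11.3 normalized reads in KO and 66.1, 37.5 and 17.1 in WT in the same order of libraries. In both genotypes, *Gbp3* was highest in library a and lowest in library c, and the groups overlapped (limma difference -0.82, SE 0.60, *p* = 0.205, exact permutation *p* = 0.3). Its difference was -1.31 without WT-c, -0.45 without KO-c and -0.37 without WT-a.

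*Gbp2*, the third gene of this cluster, held 56.4, 38.6 and 19.2 normalized reads in KO and 39.2, 42.1 and 29.3 in WT. The means of *Gbp2* were 38.1 ± 18.6 and 36.9 ± 6.68 (SD, n = 3 pools each; two-sided exact permutation test, *p* = 1). Its limma difference was -0.06 with a 95% interval from -1.15 to 1.02. *Gbp6* held 69.3, 22.2 and 18.1 normalized reads in KO and 84.1, 27.3 and 23.2 in WT, with KO-a and WT-a far above the other 4 libraries. Its limma difference was -0.30 with an SE of 0.66 (*p* = 0.656, exact permutation *p* = 0.5), and 0.26 without WT-a. The ISRE cores of *Gbp7*, *Gbp3* and *Gbp2* printed above begin 53, 45 and 59 bases before the start. Whether the motif bears on their values was not tested. *Gbp4*, a further family member outside the list, had a limma difference of -1.27 with an SE of 0.69 (*p* = 0.0992, exact permutation *p* = 0.3). Members of this family share long stretches of sequence, and how reads that fit several of them were counted is not given in the sources used here.

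The immunity-related GTPases had no recovered reads and held the member with the lowest ratio of all. *Iigp1*, an effector GTPase that damages the vacuole of parasites, had a WT value of 1047 and a KO value of 503 (log2 ratio -1.06). With 1 value per genotype, its spread between pools is unknown. *Igtp*, another member of the family, had 491 in WT and 428 in KO, and *Ifi47* had 120 and 105. *Irgm1* and *Irgm2* are among the regulators that keep the effectors off the cell's own membranes. Their values were 336 and 446 in WT and 366 and 473 in KO. The log2 ratios of these 4 ran from -0.20 to 0.12. *Igtp* and *Irgm2*, whose promoter windows above differ at few bases, had log2 ratios of -0.20 and 0.08. Per kb of gene length, the value of *Iigp1* was 350 in WT and 168 in KO.

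The OAS family makes or resembles the enzymes that make 2′-5′ oligoadenylates, which switch on RNase L, and its members were nearly equal or went either way between the genotypes. *Oas3* held 43.4, 38.6 and 62.1 normalized reads in KO-a to KO-c and 35.9, 59.1 and 46.5 in WT-a to WT-c. These are 48.1 ± 12.4 in KO and 47.2 ± 11.6 in WT (SD, n = 3 pools each; two-sided exact permutation test, *p* = 1), and the 95% interval of the limma difference ran from -0.91 to 0.96. *Oas3* was not highest in libraries KO-a and WT-a, unlike 8 of the 14 members. *Oasl2* held 80.8, 69.5 and 77.9 in KO and 72.7, 43.2 and 97.8 in WT, with a limma difference of 0.17 (SE 0.42, *p* = 0.703, exact permutation *p* = 0.8, fitted with all 3793 resolved genes). *Oas2* held 18.3, 7.72 and 13.5 in KO and 35.1, 7.96 and 7.34 in WT, where WT-a alone stood high (limma difference -0.05, SE 0.63, *p* = 0.942, exact permutation *p* = 0.9). *Oas1a* had a WT value of 81.9 and a KO value of 102, the highest ratio of the 40 members at 0.31, and *Oasl1* had 425 and 348. Reads of *Oas1a* may be shared with its near copies in the same cluster on chromosome 5.

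The ISG15 system tags proteins with a small ubiquitin-like protein. *Isg15*, the tag, had a value of 120 in both genotypes, and *Usp18*, the protease that removes it and blocks the type I receptor, had 258 in WT and 246 in KO. *Herc6*, the ligase that attaches the tag in mice, held 31.2, 17.4 and 12.4 normalized reads in KO-a to KO-c and 70.2, 15.9 and 33.0 in WT-a to WT-c. Library WT-b lay below KO-b, so that the groups overlapped. The means of *Herc6* were 20.3 ± 9.76 and 39.7 ± 27.8 (SD, n = 3 pools each; two-sided exact permutation test, *p* = 0.3), with a limma difference of -0.79 and an SE of 0.59 (*p* = 0.2175). Without WT-b the difference was -1.30, without KO-c -0.50 and without WT-a -0.27.

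Of the other antiviral effectors, none had a log2 ratio beyond 0.3 in either direction. *Bst2*, which encodes tetherin and holds budding virus at the cell surface, was the most abundant member per length, with a value per kb of 1813 in WT and 1671 in KO. *Ifi35*, a partner of NMI, had a WT value of 490 and a KO value of 408. *Rsad2*, which encodes viperin, had 106 and 116, and its neighbour on chromosome 12, *Cmpk2*, a nucleotide kinase, could be followed by library. *Cmpk2* held 97.5, 58.9 and 40.6 normalized reads in KO and 88.2, 42.1 and 90.5 in WT (limma difference -0.17, SE 0.49, *p* = 0.734, exact permutation *p* = 0.9, fitted with all 3793 resolved genes). *Xaf1*, a pro-apoptotic gene, held 49.5, 77.2 and 54.2 in KO and 42.5, 48.9 and 62.4 in WT, with a limma difference of 0.22 (SE 0.40, *p* = 0.593, exact permutation *p* = 0.5). It was 0.37 without WT-c, 0.10 without WT-a and 0.03 without KO-b. In neither *Cmpk2* nor *Xaf1* were the libraries named a the highest of both genotypes.

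The dynamin-like GTPase genes *Mx1* and *Mx2*, neighbours on chromosome 16, and the last 2 effectors were weak. *Mx2* held 39.6, 29.0 and 5.65 normalized reads in KO and 41.6, 18.2 and 11.01 in WT (limma difference -0.09, SE 0.74, *p* = 0.902, exact permutation *p* = 1). *Trim30a*, a ubiquitin ligase, held 22.9, 11.6 and 9.03 in KO and 34.3, 7.96 and 11.01 in WT (limma difference -0.11, SE 0.60, *p* = 0.856, exact permutation *p* = 0.9). Both were highest in KO-a and WT-a, as were the pair with the fewest reads. *Mx1* had 16, 6 and 6 reads in KO-a to KO-c and 18, 7 and 4 in WT-a to WT-c before division by size factors. *Ifi44* had 13, 7 and 5 reads in KO and 21, 5 and 4 in WT. At these counts the sampling of reads alone spreads the values widely, and both were left out of limma.

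The ADP-ribosyltransferases and their partner complete the list. *Parp9* had a WT value of 428 and a KO value of 378, its partner *Dtx3l*, a ubiquitin ligase, 392 and 384, and *Parp14* 193 and 170. *Dtx3l* (chromosome 16, 35926515 to 35939027) and *Parp9* (35938470 to 35972621) overlap in the annotation, and the strand setting of the counting is not given in the sources used here, so reads in the overlap cannot be assigned to either. Their log2 ratios ran from -0.19 to -0.03.

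**Figure D5:**
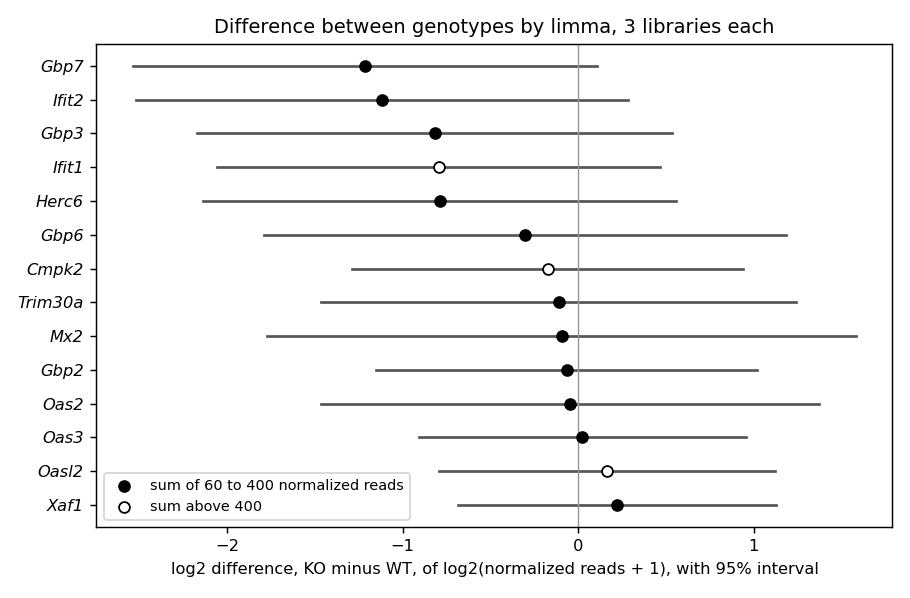
Limma difference of log2(normalized reads + 1), KO minus WT (x axis), for the 14 members with at least 60 normalized reads (y axis); points are estimates from 3 libraries per genotype, bars their 95% intervals, and open circles mark genes with a sum above 400, fitted with all 3793 resolved genes. Every interval includes 0, and *Gbp7* at -1.22 comes closest to leaving it out.

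Members with and without an ISRE core had close median ratios, a comparison that was not tested. The 17 members with the motif had a median log2 ratio of -0.12, with 9 lower in KO and 4 under -0.5. The 13 listed members without it in the window had a median of -0.13, with 10 lower in KO and 2 under -0.5. Over all genes, 57.7% were lower in KO and 7.61% under -0.5. The promoter table has no entry for the other 10, *Iigp1* among them.

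Other interferon-stimulated genes were taken as a list of 119 apart from the members. Of these, 104 were listed and 35 could be tested, and 0 passed an adjusted *p* of 0.05 in limma. At an unadjusted *p* of 0.05, 1 passed with a lower level in KO, where 1.3% of all 3307 genes did, and 0 with a higher level, where 0.605% did. It was *Trim12c*, a ubiquitin ligase gene of the *Trim30a* cluster. It held 23.6, 7.72 and 4.52 normalized reads in KO-a to KO-c and 40.01, 28.4 and 24.5 in WT-a to WT-c. All 3 KO libraries were below all 3 WT libraries, where 2.85% of genes with at least 10 recovered reads had this order. The limma difference of *Trim12c* was -1.57 with an SE of 0.58 (*p* = 0.0239, adjusted *p* = 0.999, exact permutation *p* = 0.1). Of the 73 with a mean value of at least 10, 41 had the lower value in KO, 9 had a ratio under -0.5 and 0 had a ratio over 0.5, where the shares of all genes were 57.7%, 7.61% and 2.38%. The median limma difference of the 35 was -0.36, beside -0.07 over all genes tested.

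Other gene groups of the same libraries are given here for their values. The acute phase genes driven by STAT3 had 5 of 22 members with a ratio over 0.5, with *Saa1* at 542 in WT and 4748 in KO, *Saa2* at 299 and 4056 and *Lcn2* at 147 and 396, beside 2.38% of all genes. Of 12 markers of lymphocytes and NK cells, 11 were listed, and each of the 11 had reads. Their summed normalized reads were 123 to 225 in the WT libraries and 85.0 to 114 in the KO libraries, which do not overlap. The sums of the 3 acute phase genes with recovered reads (92.3 to 120 in WT, 145 to 192 in KO) did not overlap either. Nor did the 1 red cell gene with recovered reads (0 to 4.08 in WT, 4.57 to 20.3 in KO). In every other group with recovered reads the sums overlapped. For the Kupffer cell markers they were 125 to 179 in WT and 147 to 238 in KO. For the interferon-stimulated members they were 487 to 918 in WT and 391 to 728 in KO. Among single genes with at least 10 recovered reads, 6.19% did not overlap, and no such share was taken for sums. The lymphocyte markers *Cd4* and *Cd79a* and the pan-leukocyte marker *Ptprc* each overlapped. Their limma differences were -0.37, -0.53 and -0.86 (exact permutation *p* = 0.6, 0.4 and 0.4). The values of the Kupffer cell markers summed to 3199 in WT and 3693 in KO, and those of sinusoidal endothelium to 3141 and 2989. Red cell genes summed to 118834 in WT and 180440 in KO, with 4 of 6 over a ratio of 0.5. The part of these cell types in the values of the interferon-stimulated genes was not tested.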

How the data were processed

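Poly-A RNA of liver was sequenced by a service from 3 WT and 3 KO pools, grouped by genotype label. For each gene the authors deposited 1 expression signal per genotype, in reads scaled by DESeq2 size factors, with the libraries combined. Their own log2 ratios, *p* values and adjusted *p* values stand in the same table and were not used. The authors also deposited the clean read count and, in percent, mapped reads and ribosomal RNA per library. The submitters' processing notes name the build mm10 and HISAT2, StringTie, Cufflinks, GATK, Bowtie2 and RSEM without roles. The DESeq2 version is not given in the sources used here.

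Reads per library were recovered because 6 times the midpoint of both genotype values is a sum of whole reads, each worth 1 over a library's size factor. What 1 read was worth came from genes with 1 read in all, where at least 20 had the same value. Sums up to 600 were enumerated, and values were matched to within 2.5 rounding steps of the table, or 5 up to a sum of 200. A single set of reads was left for 8063 of 8081 genes with a sum up to 400 (99.78%) and for 486 of 979 above it. Tested on simulated data, every recovered read number was right, in 7541 and 401 genes. Library letters carry no pool number.

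limma 3.58.1 in R 4.3.3 compared the genotypes on log2(normalized reads + 1) over 3307 genes with a sum of 60 to 400, two-sided, with Benjamini-Hochberg adjustment over all of them. Tested on simulated data, it called 0 of 3107 genes without a difference. Members with a sum above 400 were fitted with every resolved gene from 60 (3793). Exact permutation tests compared mean normalized reads, with 0.1 the smallest *p* of 3 against 3. Genotype values were compared as log2 ratios with a pseudocount of 1. Alternatives were the pseudocount, the limits on the sum, TMM factors, a term for libraries KO-a and WT-a, edgeR 4.0.16 and each library left out. Gene positions, gene starts and promoters came from RefSeq tables on GRCm38.p6, the sequence mm10 is based on.

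The members, lists and tests were chosen with earlier results of these data known. Every member is reported: by library with limma from 60 normalized reads, by reads below that, otherwise by genotype value. Genes outside the members are *Txndc5* and up to 3 per list, those with the smallest limma *p* or, without reads, the largest log2 ratio. Splicing events were not used.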

Additional observations from a re-analysis of the deposited data

How the results depend on the processing

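No paired analysis was possible because the labels of WT and KO share only the replicate number 2 and the recovered libraries carry no number. After adjustment, edgeR called 0 of all 3307 genes. The count of members past an adjusted *p* of 0.05 was 0 in every fit listed here. It ran from 0 to 0 with 1 library left out and was 0 by edgeR. Past an unadjusted *p* of 0.05 it was 0 in the fit reported, 1 with TMM factors (*Gbp7*; 2.48% of all genes), 2 with a term for libraries KO-a and WT-a (*Gbp7* and *Ifit2*; 7.32%), and 0 to 2 with 1 library left out. The number of members whose groups do not overlap was 0, and 0 to 4 with 1 library left out, where a group of 2 is also less likely to overlap. The median limma difference of the members was -0.11, -0.02 with TMM factors, -0.30 with edgeR, and from -0.60 to -0.01 with 1 library left out. TMM factors moved the median of all genes tested from -0.07 to 0.02. Of 187 values of single members under the alternatives, 168 kept their direction and 19 did not. *Gbp3*, *Gbp7*, *Herc6*, *Ifit1*, *Ifit2* and *Xaf1* kept it under all of them, while with 1 library left out their differences ran from -1.31 to -0.37, -1.69 to -0.81, -1.30 to -0.27, -1.24 to -0.38, -1.70 to -0.79 and 0.03 to 0.37 in turn. *Gbp2* was at 0.025 with TMM and 0.053 with edgeR, *Mx2* at 0.063 with edgeR, and *Oas2* at 0.047 with TMM. With 1 library left out, the range was -0.41 to 0.35 for *Gbp2*, -0.88 to 0.26 for *Gbp6*, -0.60 to 0.70 for *Mx2*, -0.42 to 0.64 for *Oas2*, -0.17 to 0.20 for *Oas3*, -0.51 to 0.48 for *Trim30a*, -0.53 to 0.12 for *Cmpk2* and -0.15 to 0.43 for *Oasl2*. The cause was not tested. The median ratio of the authors' values kept its direction under each pseudocount, filter and centring tried. A pseudocount cannot change on which side of 0 a ratio lies. The count of members lower in KO was 26 of 38, beside 57.7% of all genes. After centring on the median of all genes it was 24 of 38, beside 50% of all genes. It was 28 of 40 with a mean value of at least 1 or no filter, beside 57.5% and 56.7%. The 24 members without recovered reads rest on 1 value per genotype, and 3 pools per genotype limit all tests.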
